A study of Homo sapiens with 102 samples.

Results

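H3K9me3 was followed through 3 stages of the cell cycle on 2 human artificial chromosomes (HACs), HAC 1-20 and its companion HAC 4-65. The 6 libraries described here, of 102 in the series, are the H3K9me3 libraries of these lines from cells arrested with thymidine, cells arrested with colcemid, and cells harvested 3 hr after release from colcemid. They were chosen by antibody and treatment alone. Both HACs were kept in HT1080, an established human fibrosarcoma line, and each line grew from a single picked colony. A difference between the lines is thus a difference between 2 clones, whose synthetic centromere DNA also differs. Thymidine holds cells at the start of S phase, colcemid holds them in metaphase, and cells released from colcemid go on into G1. The H3K9me3 libraries of untreated cells and of cells given siControl, a control siRNA, served as a yardstick for how far 2 libraries from unsynchronised cells lie apart, and those of cells given siKAT7 or siHJURP extended that range. Every group had 1 library, made from the pooled DNA of 3 ChIP reactions, so there is no replicate error and no test. The sign of a change over 2 lines could not have reached an exact two-sided p below 0.5. All intervals in brackets are 95% and cover counting error only, since the PCR reads carry no molecular identifiers and may repeat a molecule.

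H3K9me3, trimethylation of lysine 9 of histone H3, is the mark of constitutive heterochromatin and is bound by HP1 proteins. Around natural centromeres it covers the pericentromeric repeats that flank the chromatin of CENP-A, the H3 variant of the active centromere, and it is sparse within the CENP-A chromatin itself. The HACs hold 2 kinds of synthetic alphoid unit. CenU units carry CENP-B boxes, the binding sites of the centromere protein CENP-B, and NCU units carry mutated boxes. Each unit of the construct has a short position code of its own, so reads on a code tell which numbered unit the mark was on. The study found only part of the CenU codes to be single-copy in each HAC. Reads on a code with several copies sum over all of them, and copy number was not measured here. CenU codes are called T and NCU codes L in the files.

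The codes are 23 bases long, and codes of one kind differ from each other only within 6 positions. For some pairs, such as T099 and T115, a single base decides which unit a read is counted on. The variable bases are in capitals below. T115 and T121 had the largest lower and T099 and T093 the largest higher changes of share from thymidine to colcemid in HAC 1-20, T075, T074, T049 and T047 are the codes that stood out in release in HAC 4-65, and T001 and T072 are shown because of a doubt about their names.
T115: ggggaaaaTCcccAGtttAGggg
T121: ggggaaaaTCcccGAtttGAggg
T099: ggggaaaaTGcccAGtttAGggg
T093: ggggaaaaTTcccCAtttCAggg
T075: ggggaaaaTAcccGGtttGGggg
T074: ggggaaaaTAcccGTtttGTggg
T049: ggggaaaaACcccAAtttAAggg
T047: ggggaaaaAGcccCGtttCGggg
T001: ggggaaaaTAcccTCtttTCggg
T072: ggggaaaaAAcccAAtttAAggg
T065: ggggaaaaTAcccAAtttAAggg
L065: gggcaaaaTAcccAAtttAAggg
T065 and L065 show how the 2 kinds of code are told apart. They share all their variable bases and differ at a single position, G4C, counted from 1 at the 5′ end with the base of T065 first. Of 126 T codes whose own primer could be read in the study's list, 124 were held by it. The letters listed for T001 stood in the primer of T072, and those listed for T072 in the primer of T001. T001 was read in both lines, at 1577, 1350 and 1331 reads in HAC 1-20 in thymidine, colcemid and release. T072 had few reads in both, at 51, 35 and 48 in HAC 1-20 and 40, 72 and 89 in HAC 4-65. The study's map of HAC 1-20 numbers its CenU codes T065 to T128, a range that holds T072 and not T001. Values of T001 may therefore belong to the unit that the construct calls T072, which was not tested.

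Matched reads were 316187 to 877401 per library, and the unmatched reads, left out of every total, were 6.21% to 8.29% of all reads. Codes with a median of at least 0.1% of the reads of their kind, over the 49 libraries of a line, were called carried. HAC 1-20 carried 61 of 128 T codes and 96 L codes, HAC 4-65 75 T codes and 95 L codes, and 27 T codes were carried by both. T codes that a line did not carry took 1.20%, 2.21% and 2.68% of T reads in HAC 1-20 at the 3 stages and 1.07%, 1.20% and 1.28% in HAC 4-65. A median carried T code had 1010, 754 and 525 reads in the 3 libraries of HAC 1-20 and 424, 847 and 785 in those of HAC 4-65. The untreated library of HAC 1-20 was much shallower, with 1462 T reads, so its yardstick is the weaker of the 2. Dense and sparse codes were the top and bottom parts, 1 in 3 of the carried codes each, by CENP-A reads against the reads of 5 other marks (H3K4me2, H3K14ac, H4K8ac, H4K20me1 and H3K36me2) in untreated cells, 20 and 20 in HAC 1-20 and 25 and 25 in HAC 4-65. H3K9me3 itself did not enter that choice.

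The first comparison asked how H3K9me3 was divided between the centromere units and the other units at each stage. T reads over L reads were lower at each later stage in both lines. In HAC 1-20 the ratio was 0.166 (0.165 to 0.168) in thymidine, 0.0828 in colcemid and 0.0477 in release. These are log2 changes of −1.01 (−1.03 to −0.99) from thymidine to colcemid, −0.79 from colcemid to release and −1.80 over both steps, a 3.49-fold lower ratio. In HAC 4-65 the ratio was 0.201 (0.199 to 0.203), 0.182 and 0.145, with log2 changes of −0.14 (−0.16 to −0.13), −0.32 and −0.47. The order of the stages was thus the same in both lines, and the change over both steps was larger in HAC 1-20.

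The unsynchronised H3K9me3 libraries show how much of this a pair of libraries can differ by. In HAC 1-20 the ratio was 0.0745 in untreated, 0.102 in siControl, 0.118 in siKAT7 and 0.131 in siHJURP cells. Thymidine lay above and release below all of these. In HAC 4-65 the same 4 libraries ran from 0.0938 to 0.314, and the 3 stages lay inside that range. Untreated and siControl cells alone differed by a log2 change of 0.46 in HAC 1-20 and 0.61 in HAC 4-65, more than any stage change of HAC 4-65 and less than each of HAC 1-20. A ratio holds the yield of both kinds of unit, so fewer T reads and more L reads cannot be told apart.

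**Figure D1:**
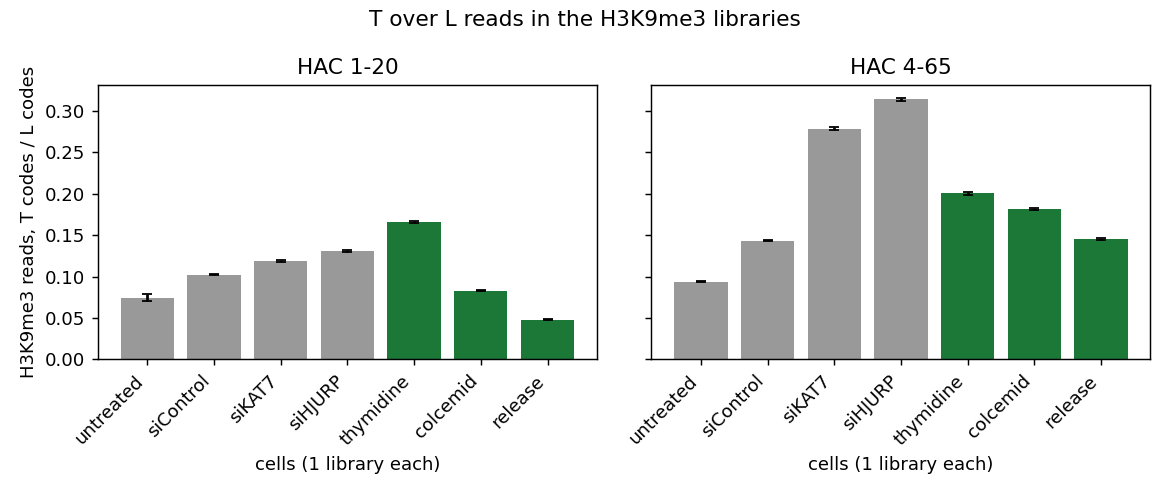
H3K9me3 reads on T codes over reads on L codes (vertical axis, from 0) in each library of HAC 1-20 (left) and HAC 4-65 (right), with unsynchronised cells in grey and the 3 stages in green. Bars are single libraries and error bars are exact 95% counting intervals. The stages step down from 0.166 to 0.0477 in HAC 1-20 and from 0.201 to 0.145 in HAC 4-65.

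The other 6 antibodies of the same cells help to place this ratio. From thymidine to colcemid T over L was lower for all 6 in both lines, by −0.59 to −2.90 on the log2 scale in HAC 1-20 and −0.10 to −2.66 in HAC 4-65, so H3K9me3 with −1.01 and −0.14 was no exception. From colcemid to release the 6 were all higher in HAC 1-20, by 0.31 (H3K4me2) to 1.87 (H4K20me1), and H3K9me3 alone was lower. In HAC 4-65 CENP-A and 4 marks were higher and H3K14ac was at −0.03, while H3K9me3 was at −0.32. H3K9me3 was thus lowest of the 7 antibodies in its step to release in both lines. These ratios come from 1 library each, and in HAC 4-65 the CENP-A library of thymidine cells had only 3071 matched reads.

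The next question was whether the reads on T codes moved between units, whatever their total. From thymidine to colcemid HAC 1-20 had 3 codes past 1.5-fold higher in share of T reads (4.92% of the 61 carried codes) and 7 past 1.5-fold lower (11.5%), and all 7 lower codes were dense in CENP-A. At any size 27 codes (44.3%) had a higher share and 34 (55.7%) a lower one. The median log2 change of the dense codes was −0.37 (−0.44 to −0.31), that of the middle codes 0.20 and that of the sparse codes −0.06, beside −0.07 over all 61 codes. The dense codes together held 14.3% (14.1 to 14.6) of T reads in thymidine, 11.7% (11.5 to 12.0) in colcemid and 14.6% (14.3 to 14.9) in release. The share of the dense units was thus lowest in metaphase, and equal or higher in release than in thymidine. A share among T reads does not give the amount of H3K9me3. By recovery scaled with qPCR, the study reported higher H3K9me3 in metaphase in the CENP-A dense regions of its longer CenU clusters. In the shorter clusters it reported a decrease or no change. Its dense regions were drawn otherwise than the dense codes here.

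The codes with the largest lower share lay in 2 runs of dense units by code number, T111 to T116 (with T113, a middle code, between them) and T121 to T123. T115 had 384 reads in thymidine, 97 in colcemid and 163 in release, which are 0.506%, 0.193% and 0.408% of T reads. Its log2 change was −1.39 (−1.71 to −1.07) into colcemid and 1.08 (0.72 to 1.44) into release. T121 went from 0.700% to 0.312% and back to 0.611%. T111 went from 0.826% to 0.411% and 0.846%, so that its release value lay on its thymidine value. T114 had 0.596%, 0.334% and 0.656%, and T074, in the other dense stretch, 0.522%, 0.296% and 0.405%. T123 had 0.945%, 0.606% and 0.588%, and of the 5 largest lower changes among codes with at least 100 reads it was the one with no higher share in release. Since the step into colcemid and the step out of it share the colcemid library, an error of that library alone would give opposite signs of this kind.

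Taken as runs, which were chosen after their values were seen, the dense codes of T111 to T116 held 2.95% (2.83 to 3.07), 1.70% and 3.01% of T reads at the 3 stages, with 5 of 5 codes lower into colcemid and 5 of 5 higher into release. T121 to T123 held 2.47%, 1.52% and 2.10%. T117 to T120, which lie between them by number, differed less, at 8.80%, 8.05% and 8.53%. T117 is a dense code and T118 to T120 are middle codes. The 4 unsynchronised libraries spread as widely on the first run, from 1.18% in siControl to 3.42% in siHJURP cells.

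The codes with the largest higher share formed a run as well. T088 to T102, 15 codes that were cut out after their values were seen because each had a higher share in colcemid than in thymidine, went from 18.2% (17.9 to 18.5) of T reads to 23.9% (23.5 to 24.3). T099 had the largest change, from 657 reads (0.866%) to 790 (1.57%), a log2 change of 0.86 (0.71 to 1.01), and was at 531 reads (1.33%) in release. T093 had 0.648%, 1.04% and 1.17%, T098 0.834%, 1.27% and 1.02%, and T096 0.778%, 1.16% and 1.27%. Unlike the dense codes, the run as a whole did not return, and stood at 23.8% in release. None of these 15 codes was dense. CENP-A was lower on them over the same step, with a median log2 change of CENP-A share of −1.09.

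The unsynchronised libraries put these values in another light. T088 to T102 held 24.6% of T reads in untreated cells (22.4 to 26.8) and 24.0% in siControl cells, close to colcemid and release, and 18.8% and 18.6% in siKAT7 and siHJURP cells, close to thymidine. The dense codes held 9.92% and 9.76% in untreated and siControl cells, below all 3 stages, and 13.9% and 15.9% in siKAT7 and siHJURP cells. Every share of dense codes and of this run at the stages of HAC 1-20 lay between the lowest and highest unsynchronised library, except that of the run in thymidine, which was the lowest of the 7. With siControl cells in place of thymidine cells, an alternative added after the data were seen, the dense minus sparse difference into colcemid was 0.58 in place of −0.31, the opposite sign, with 6 codes past 1.5-fold in place of 10. The 1.5-fold yardstick from untreated to siControl cells was 22 of 61 codes (36.1%), with 1462 T reads behind the untreated library. Of these, 11 were lower, and 8 of the lower codes were dense. The dense minus sparse difference of that pair was −0.34 (−0.74 to 0.06), with the sign and about the size of the −0.31 into colcemid.

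**Figure D2:**
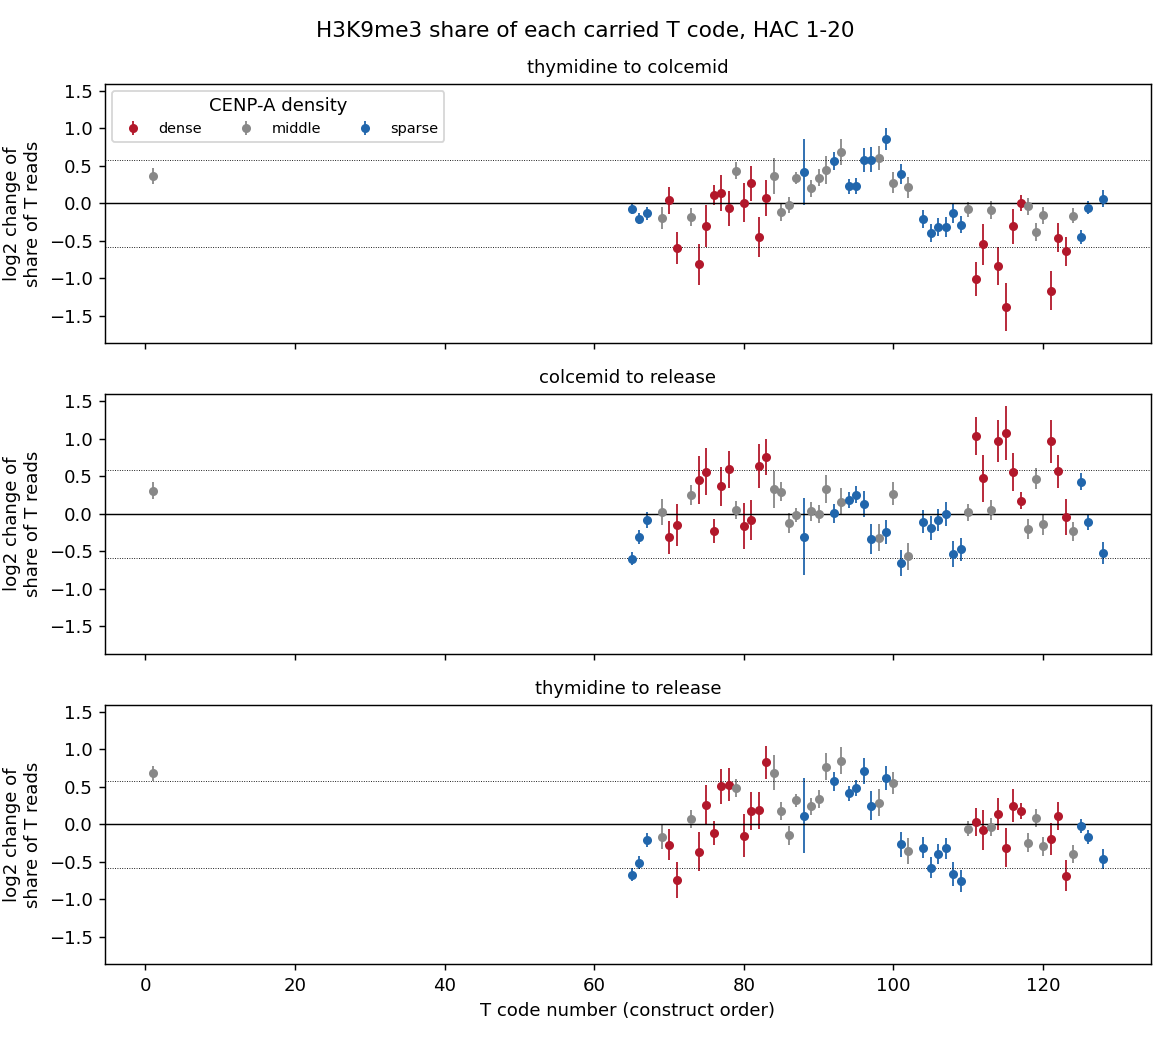
Log2 change of the share of T reads (vertical axis) of each of the 61 carried T codes of HAC 1-20 against its code number, for the 3 comparisons of stages. Colour gives the CENP-A density class, bars are 95% counting intervals, and dotted lines mark 1.5-fold. The dense codes between T111 and T123 lie low into colcemid (T115 at −1.39) and high into release (T115 at 1.08), and the codes from T088 to T102 all lie above 0 into colcemid.

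From colcemid to release HAC 1-20 had 7 codes past 1.5-fold higher (11.5%) and 2 lower (3.28%). The dense codes had a median log2 change of 0.52 (0.44 to 0.59) and the sparse codes of −0.15, beside 0.02 over all codes. The dense minus sparse difference was 0.66 (0.57 to 0.75), the largest of the 6 in the 2 lines. Besides T111, T114, T115 and T121, the codes T083 (0.481% to 0.811%) and T082 (log2 change 0.63) of the other dense stretch had higher shares. The largest lower changes were on codes that were not dense. T101 went from 1.68% to 1.07%, a log2 change of −0.65 (−0.82 to −0.49), T065 from 6.13% to 4.06%, T102 by −0.57, T108 by −0.53 and T128 by −0.52.

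Over both steps, a comparison that does not use the colcemid library, 7 codes of HAC 1-20 were past 1.5-fold higher (11.5%) and 5 lower (8.20%). The median log2 change was 0.07 on dense, 0.18 on middle and −0.24 on sparse codes, beside 0.03 over all. The dense minus sparse difference was 0.31 (0.23 to 0.39), the same size as the yardstick of −0.34 (−0.74 to 0.06) with the opposite sign. The dense codes T111, T114, T115 and T121 were past 1.5-fold in neither direction here, and T123 was still lower. T093 (0.85), T083 (0.83), T091 (0.77), T096 (0.71) and T084 (0.69) were highest. T109 (−0.75), T071 (−0.74), T123 (−0.68), T065 (−0.67) and T108 (−0.66) were lowest.

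Sparse codes with lower shares lay together on an assembled stretch of the chromosome. In the assembly of HAC 1-20 that came with the study, a contig held, in this order, T092, T124, T125, T126, T128, T127, T065, T066, T067 and T104 to T110, so units that are far apart by code number were neighbours there. Of the 15 carried codes on it, 13 were lower into colcemid, 12 were lower into release and 14 were lower over both steps, against 34, 29 and 30 of all 61 carried codes (55.7%, 47.5% and 49.2%). Their median over both steps was −0.39, and that of the other 46 codes was 0.18. T104 to T110 and T065 to T067 were runs that were not among the blocks listed beforehand. The wider blocks that were listed changed less over both steps. T094 to T110 held 26.1%, 27.4% and 25.6% of T reads at the 3 stages, and T065 to T083 27.6%, 26.0% and 23.9%. The run T104 to T110 held 14.7% (14.47 to 14.98), 12.5% and 11.2%, and T065 to T067 16.1%, 14.7% and 11.4%. The release values of these runs lay below all 4 unsynchronised libraries, which were 14.4% to 16.3% and 13.2% to 15.4%. T092 was the code of this contig that was higher over both steps (0.58), and it was parted from the others by an L code. A second contig held T087, T117 to T120 and T113, and its 6 codes had a median of 0.03 over both steps, with 3 higher and 3 lower. T127, next to T128 on the first contig, had 19, 7 and 7 reads, and the common reverse primer site did not follow its code in the assembly, as it did for the other T codes of the contig. Copies of the codes of both contigs were not looked for beyond the contigs given whole, so reads on them may come from other places too.

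In HAC 4-65 the T profile hardly moved from thymidine to colcemid. Past 1.5-fold were 3 higher codes (4.00% of 75) and 4 lower ones (5.33%), against 11 (14.7%) in the untreated to siControl yardstick. The median log2 change was −0.08 (−0.15 to −0.01) on dense, 0.04 on middle and 0.01 on sparse codes. The dense codes held 9.52% (9.27 to 9.77), 8.80% and 9.33% of T reads at the 3 stages and the sparse codes 51.9%, 51.3% and 51.6%. T075 was the largest exception, at 336 reads (0.636%) in thymidine and 314 (0.309%) in colcemid, a log2 change of −1.04 (−1.26 to −0.82). T050 was the largest higher change among codes with at least 100 reads, from 0.259% to 0.409% (log2 change 0.65). T016 at −0.65, T078 at −0.60, T034 at 0.44 and T001 at 0.36 followed.

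Release was the stage at which HAC 4-65 differed, and it did so code by code. Past 1.5-fold were 7 higher codes (9.33%) and 11 lower ones (14.7%) from colcemid, and 8 higher (10.7%) and 14 lower (18.7%) from thymidine. Dense codes lay on both sides. T074 had 0.356%, 0.322% and 0.0808% of T reads at the 3 stages, with 87 reads in release and a log2 change of −1.99 (−2.33 to −1.65) from colcemid. T075 went on down to 114 reads (0.106%), −2.58 (−2.89 to −2.28) below thymidine. T049 went from 0.283% to 0.0808%, a change of −1.80 from colcemid, and T045 from 0.147% to 0.0566%. All 4 are dense codes, and T074 and T075 are neighbours.

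Other dense or middle codes close by were higher in the same library. T047, a middle code, had 387 reads (0.732%), 751 (0.739%) and 1799 (1.67%), a change of 1.18 (1.05 to 1.30) from colcemid. T043 went from 0.190% to 0.423% and T046 from 0.154% to 0.334%, while T045 between them was lower. T040 had 0.182%, 0.282% and 0.503%. The medians hide this. The dense codes had a median of −0.12 from colcemid, but the SD of their changes was 0.92, where counting error alone gives 0.13, and the SD of the same codes was 0.40 from thymidine to colcemid and 0.27 from untreated to siControl cells. In sparse codes of this line the SD of the same step was 0.32, with a counting SD of 0.05.

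A run of neighbours in HAC 4-65 that moved one way into release was T071 to T076, chosen after its values were seen. Its 5 carried codes held 2.02% (1.91 to 2.15), 1.61% and 0.817% (0.764 to 0.873) of T reads at the 3 stages, with 5 of 5 lower into release. The 4 unsynchronised libraries gave 1.54% to 2.35%, all above the release value. The block T030 to T050 held 6.70%, 7.18% and 8.93%, the last above the unsynchronised range of 5.51% to 7.66%, but 3 of its 21 codes are middle codes, T047 among them. Its 18 dense codes held 5.41%, 5.69% and 6.69% (6.54 to 6.84), against 4.52% to 6.05% in unsynchronised cells, and 11 of them were higher and 7 lower into release. All 7 dense codes of the other stretch, T071 to T078, held 4.10%, 3.11% and 2.64% (2.54 to 2.74), against 3.16% to 4.23%, and 6 of them were lower and 1 higher into release. T002 to T014, its longest sparse stretch, stayed at 29.4%, 28.9% and 28.9%.

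**Figure D3:**
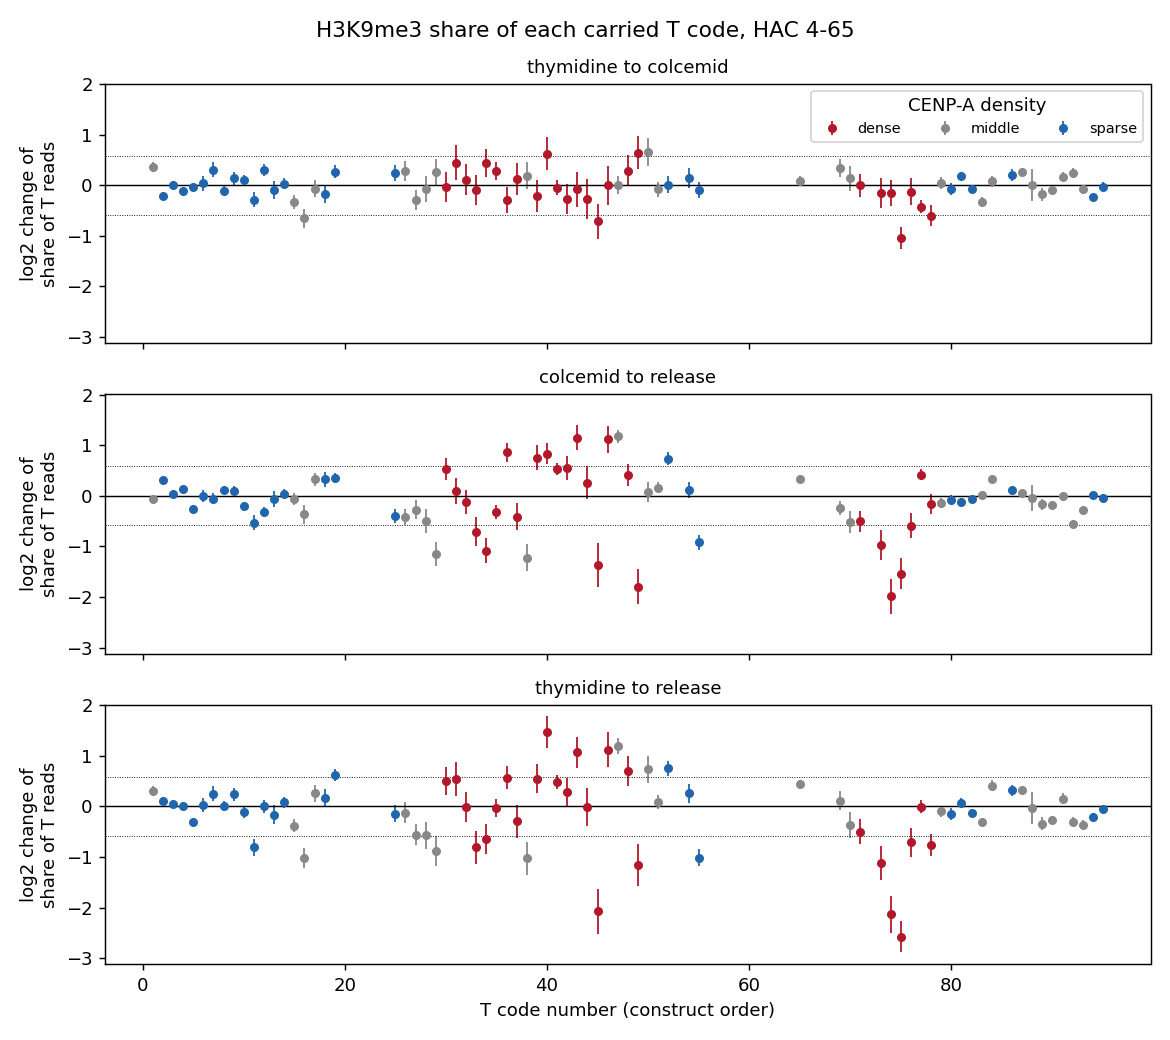
Log2 change of the share of T reads (vertical axis) of each of the 75 carried T codes of HAC 4-65 against its code number, for the 3 comparisons of stages. Colour gives the CENP-A density class, bars are 95% counting intervals, and dotted lines mark 1.5-fold. Most codes lie near 0 into colcemid, and into release the dense codes scatter from −1.99 (T074) to 1.15 (T043).

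**Figure D4:**
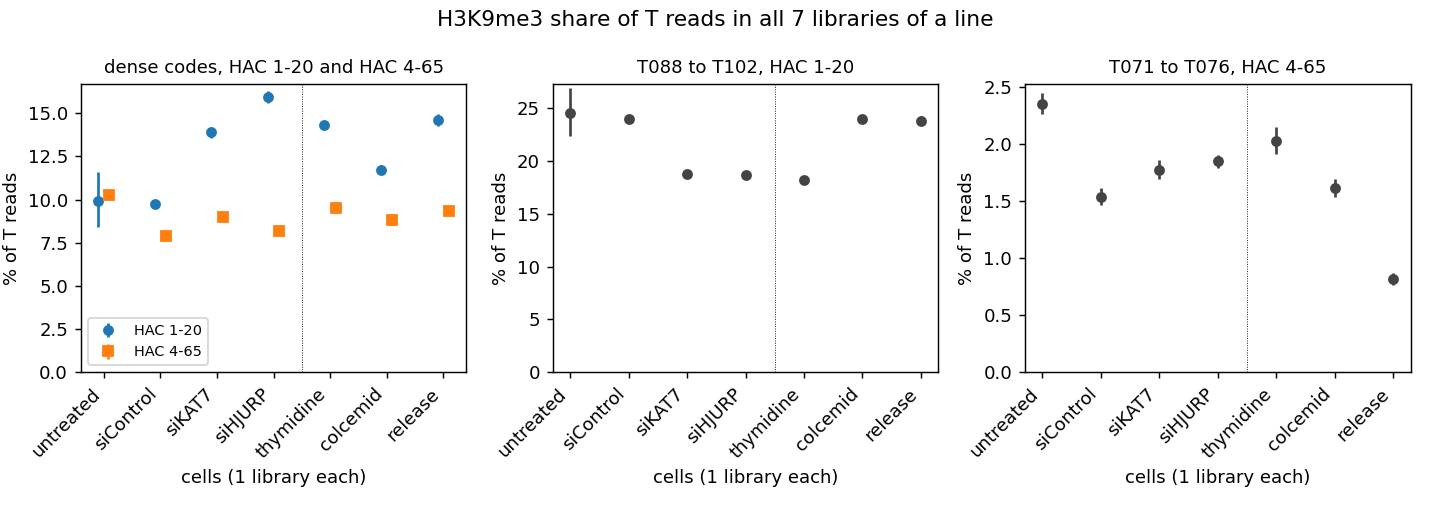
Share of H3K9me3 T reads (percent, vertical axis from 0) in each library, unsynchronised cells left of the dotted line and the stages right of it, for dense codes in both lines (left), T088 to T102 in HAC 1-20 (middle) and T071 to T076 in HAC 4-65 (right). Points are single libraries with exact 95% counting intervals. The dense share of HAC 1-20 runs from 9.76% to 15.9% in unsynchronised cells, around its stage values of 11.7% to 14.6%, and T071 to T076 is lowest in release, at 0.817%.

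The 2 lines did not share these moves. Of the 27 T codes carried by both, 14 had the same sign of change from thymidine to colcemid, 11 from colcemid to release and 10 over both steps. Pearson's r across these codes was 0.31, −0.21 and 0.16. The study's maps number the CenU codes T065 to T128 in HAC 1-20 and T001 to T096 in HAC 4-65, so the lines hold different sets of units. Codes T002 to T064 were carried by HAC 4-65 alone, and T111 to T128 by HAC 1-20 alone. Many of the codes that moved in a line therefore have no counterpart in the other. T074 and T075 were carried by both. T074 was at −0.36 over both steps in HAC 1-20 and at −2.13 in HAC 4-65.

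The changes of H3K9me3 were set beside those of CENP-A in the same cells. Across the 61 codes of HAC 1-20 they had r = −0.65 (Spearman's rho −0.73) from thymidine to colcemid, 0.13 from colcemid to release and −0.50 over both steps. Codes are not independent replicates, and neighbouring codes move together, with r = 0.59 between the H3K9me3 changes of 55 pairs of consecutive codes in the first step. T104 to T110, a run not listed beforehand, show the pattern from the other side than T088 to T102. Into colcemid the H3K9me3 share was lower on 7 of 7 of these codes, against 34 of all 61 (55.7%). Their median CENP-A change was 0.77, from few CENP-A reads (14 on T109 in thymidine). In HAC 4-65 the r was 0.02, −0.01 and −0.08, with 2599 T reads in the CENP-A library of thymidine cells. The share of T reads on these sparse codes in CENP-A libraries is small, so their log2 changes rest on low counts.

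Whether the edges of heterochromatin moved was asked with a level per code, the log2 share of H3K9me3 reads minus the mean log2 share of the 5 other marks in siControl cells, set to 0 at the median code of each library. The subtraction stands in for copy number, is the same at all stages, and no input DNA was used here. In the study H3K4me2, H3K14ac, H4K8ac and H4K20me1 were positively correlated with CENP-A. Subtracting them can lower the level on dense units at all stages alike, so part of a gap between sparse and dense units can come from the subtraction. Since the median is 0 by construction, the level shows where H3K9me3 lay relative to the other units, not how much there was. By this level most codes stayed on their side of the median. In HAC 1-20 51 of 61 codes and in HAC 4-65 65 of 75 codes were on the same side at all 3 stages. Between untreated and siControl cells 8 and 12 codes changed side. The same subtraction at all stages, and any effect of copy number it leaves, favour a code staying on its side. Small moves could therefore be missed.

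At each stage 1 of the 20 dense codes of HAC 1-20, T117, lay above the median, and of the sparse codes 16, 18 and 16 of 20. In HAC 4-65 2 of 25 dense codes and 24 of 25 sparse codes were above it at each stage. The gap between the median level of sparse and of dense codes was 2.02, 2.33 and 1.67 on the log2 scale in HAC 1-20 and 2.19, 2.26 and 2.35 in HAC 4-65. By this level, with the limit of its subtraction, H3K9me3 stayed poorest on the CENP-A dense units throughout. The highest levels in thymidine were on T126 (1.45, then 1.24 and 1.20), T128 (1.25) and T108 (1.22) in HAC 1-20 and on T008 (1.61, then 1.56 and 1.74), T010 (1.60) and T055 (1.36) in HAC 4-65. The lowest were on T084 (−2.0, then −1.79 and −1.39), T077 (−1.87) and T075 (−1.83) in HAC 1-20 and on T040 (−2.13, then −1.43 and −0.53), T044 (−1.99) and T031 (−1.98) in HAC 4-65.

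An edge was taken between carried codes that follow each other by number and lie on opposite sides of the median. The order of units on HAC 4-65 was not analysed here, and on HAC 1-20 number order was not chromosome order, so these are edges along the numbering. HAC 1-20 had 20, 16 and 20 edges at the 3 stages. Of its 27 different edges 9 were present at all stages, each also in siControl cells. Among these 9 were T069 and T070, T110 and T111, T116 and T117, and T123 and T124. On the contigs given whole an L code followed T110 and an L code came before T117 and T124. At those places the last 3 of these pairs were not next to each other. Copies outside these contigs were not examined. At T110 and T111 the level dropped from 0.47 to −0.64 in thymidine, from 0.23 to −1.80 in colcemid and from 0.33 to −0.69 in release. HAC 4-65 had 14, 16 and 18 edges. Of its 27 different edges 7 were present at all stages, among them T050 and T051 and T078 and T079, and 3 of these 7 were also in siControl cells.

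Codes that changed side numbered 6 from thymidine to colcemid, 6 from colcemid to release and 8 over both steps in HAC 1-20, and 6, 8 and 6 in HAC 4-65, where the untreated to siControl yardstick was 8 and 12. Of these, T099 in HAC 1-20 (−0.21, 0.49 and 0.32 at the 3 stages) and T047 in HAC 4-65 (−0.27, −0.19 and 1.05) had a level more than 0.2 from the median on both sides. T099 closed a gap in the high run from T098 to T102. T047 opened a single high unit inside a low stretch, and was already high in siControl cells. At the other codes that changed side, at least 1 of the compared levels was within 0.2 of the median. The longest low stretch of HAC 4-65, which ended at T050, was broken by T041 at all stages, T035 in colcemid and T047 in release. Its end at the lower numbers lay at T027 and T028 in thymidine and colcemid and at T026 and T027 in release. T027 was at 0.23, 0.01 and −0.20, a shift of 1 code number. The other end, T050 and T051, did not move.

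**Figure D5:**
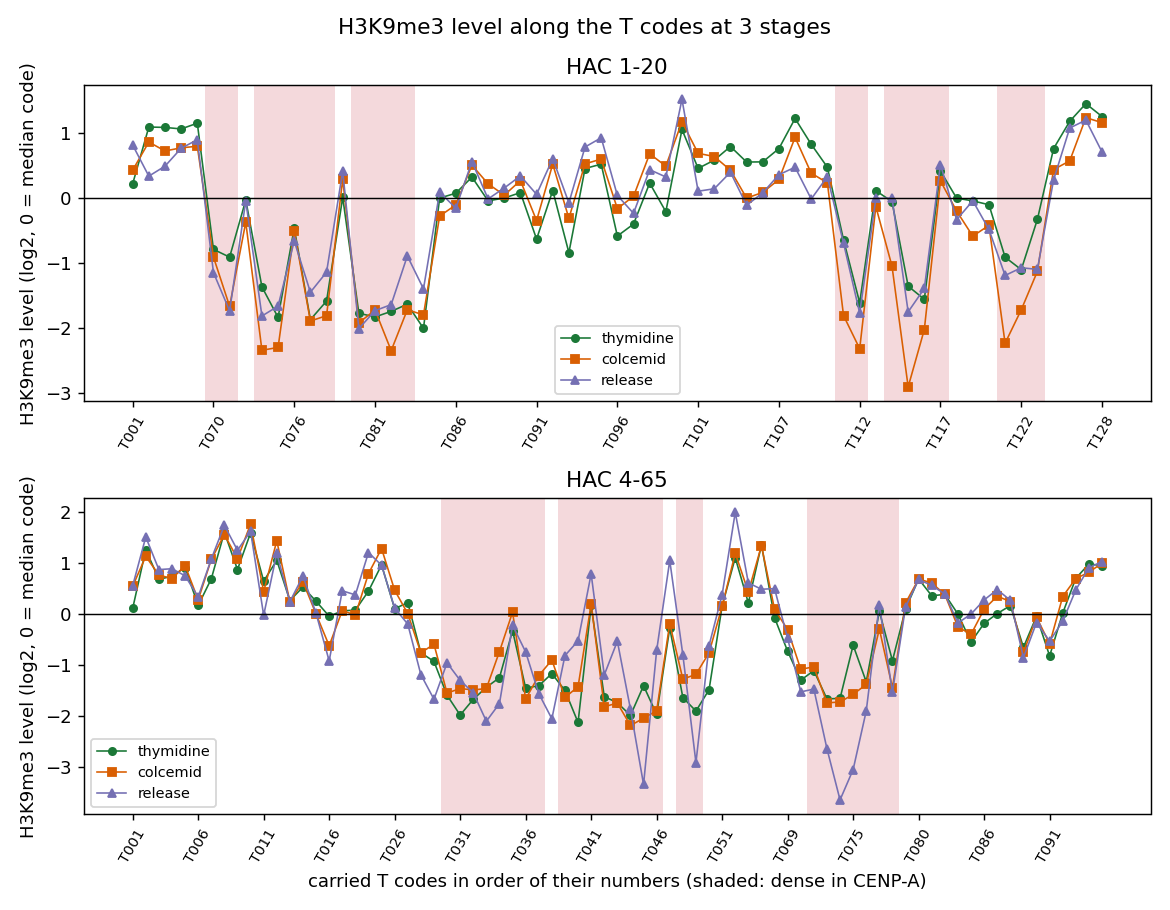
H3K9me3 level of each carried T code (vertical axis, log2, 0 at the median code) in order of code number in HAC 1-20 (top) and HAC 4-65 (bottom), in thymidine (circles), colcemid (squares) and release (triangles). Shading marks the codes dense in CENP-A. The main low stretches lie in the same places at the 3 stages, while single codes change side. Of 27 different edges in each line, 9 in HAC 1-20 and 7 in HAC 4-65 are present at all 3 stages. The gap between sparse and dense codes is smallest in release in HAC 1-20, at 1.67, and largest in release in HAC 4-65, at 2.35.

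The profile along the L codes, which hold most H3K9me3 reads, stayed nearly the same. Of 96 and 95 carried L codes, 0 were past 1.5-fold in share of L reads in either direction in any of the 6 comparisons (0% each), against 8 in each line from untreated to siControl cells (8.33% and 8.42%). L007 was the richest L code of HAC 1-20 at all stages, at 2.67%, 2.55% and 2.60%, and L093 that of HAC 4-65, at 2.48%, 2.43% and 2.34%. The SD of the log2 changes was 0.115, 0.0661 and 0.114 in HAC 1-20 and 0.137, 0.147 and 0.162 in HAC 4-65. The same measure on T codes was 0.45, 0.41 and 0.43 and 0.295, 0.62 and 0.70.

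The largest single L changes were small. L042 of HAC 1-20 went from 0.812% to 0.647% in colcemid, a log2 change of −0.33 (−0.39 to −0.26), and L117, a code with no sequence in the list used here, at 0.173%, 0.139% and 0.135%, had −0.36 over both steps. In HAC 4-65 L050 had 0.352%, 0.432% and 0.51%, a change of 0.53 (0.43 to 0.64) over both steps, and L013 had 0.45 and L057 −0.40 into colcemid. The share of all T reads that changed codes between stages was 9.38%, 9.02% and 12.7% in HAC 1-20 and 5.97%, 8.37% and 9.85% in HAC 4-65. For L reads it was 3.06%, 1.74% and 3.02%, and 2.86%, 3.23% and 3.85%. Untreated and siControl cells differed by 15.8% and 12.1% of T reads and 9.73% and 8.77% of L reads, more than any pair of stages. The values of HAC 1-20 rest on its shallow untreated library, and counting error raises them. The counting SD of its T changes was 0.46 there, against 0.09 to 0.10 between stages.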

How the data were processed

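Cells were fixed with formaldehyde, sonicated and immunoprecipitated with an H3K9me3 antibody, and the codes were amplified together with common primers. As deposited by the authors, the values are raw read counts per code, made from reads trimmed with cutadapt 4.0, aligned to the codes by Bowtie and counted by SAMtools, per the submitters' processing notes. No normalisation was applied and no genome build enters the counts.

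From these counts, shares were taken among T reads and among L reads, and log2 changes with 0.5 reads added per code. Intervals are exact binomial (Clopper-Pearson) for shares and ratios, and from the Poisson error of the reads for log2 changes, approximate for medians. Scripts were tested on simulated counts. Codes were named by a rule on size (largest changes with at least 100 reads in all 3 libraries, richest codes, highest and lowest levels, edges that moved, codes on whole contigs, T001 and T072). Members, lists and blocks were chosen with earlier results of these data known. Recovery by qPCR, by which the study scaled its values, did not enter. Computation used Python 3.11, numpy 2.4.6, pandas 2.3.3, scipy 1.17.1 and matplotlib 3.10.9.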

Additional observations from a re-analysis of the deposited data

Results flagged for a closer look

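From colcemid to release, the dense minus sparse difference of log2 share among T reads was 0.66 in HAC 1-20 and −0.12 in HAC 4-65, opposite directions with both counting intervals away from 0. From untreated to siControl cells the same difference was −0.34 (−0.74 to 0.06) in HAC 1-20 and −0.62 (−0.69 to −0.56) in HAC 4-65, so the value of HAC 4-65 was small beside that of 2 unsynchronised libraries. Each line had 1 library per stage, and the difference between the lines was not tested. The sign in HAC 4-65 depended on the choice of codes, and turned to 0.077 with summed reads, 0.0055 with codes carried at 0.3%, and 0.29 with the codes that HAC 1-20 did not carry, while HAC 1-20 stayed between 0.43 and 0.76 under all 7 alternatives.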

How the results depend on the processing

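The labels give no replicate numbers, so no replicate block was fitted, and with 1 library per group no replicate was left out. The stages are paired by line, but a fit of line and stage, which would take the 2 clones as replicates, was not run. T over L reads kept its direction in all 6 comparisons, and over both steps in HAC 1-20 was −1.83 with carried codes only and −1.82 without T001. The spread of L shares stayed within its interval under both alternatives.

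The dense minus sparse difference into colcemid in HAC 1-20 (−0.31) was −0.18 with density from siControl cells, −0.51 with codes not carried by the other line, and 0.58 with siControl in place of thymidine, added after the data were seen. Into release (0.66) it was 0.43 with density split at the median, 0.47 with summed reads and 0.76 with codes not carried by the other line, and over both steps (0.31) 0.16 and 0.22 for the first 2 and 1.03 from siControl. In HAC 4-65 it was 0.17 from siControl into colcemid (−0.09). Into release (−0.12) it was 0.0055 at 0.3%, −0.43 with siControl density, 0.077 with summed reads and 0.29 with codes not carried by the other line, and over both steps (−0.02) −0.50, 0.35 and, from siControl, 0.031. The cause was not tested.

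With reads over L reads, which adds the change of T over L to every code, codes past 1.5-fold were 53, 39 and 61 in HAC 1-20 (10, 9 and 12 by share) and 4, 28 and 36 in HAC 4-65 (7, 18 and 22), and blocks of codes with a higher value were 0, 0 and 0 of 5 and 1, 0 and 0 of 8. With siControl in place of thymidine 6 codes were past 1.5-fold into colcemid in HAC 1-20, and at least 100 reads in all 3 libraries left 4 in HAC 4-65. Codes that changed side were 2 (HAC 1-20) and 10 (HAC 4-65) from siControl into colcemid, 4 over both steps in HAC 1-20 and 2 into colcemid in HAC 4-65 with no proxy, and 4 into release in HAC 4-65 with the proxy from untreated cells.

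Depth limits single codes, with as few as 50 reads on a carried T code in HAC 1-20 release (T088, sparse) and 61 in HAC 4-65 release (T045, dense). The untreated library of HAC 1-20, at 1462 T reads, cannot show changes of the size seen between stages on single codes.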
